A study of Mus musculus with 8 samples.

Results

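Imprinted genes are expressed mainly from the copy inherited from the mother or mainly from the copy inherited from the father. The genes described here are 44 well-known imprinted genes of the mouse, chosen by symbol and arranged in 19 imprinted clusters. Of the 24155 genes in the deposited table, 40 were members of this set, and all 19 clusters had at least 1 of them. Dio3, Phlda2, Slc22a18 and Nespas had no row under these symbols in the table used here and were not tested as members. Promoter windows of Dio3, Phlda2 and Slc22a18 are among those described below. Gnasas1, an antisense gene that overlaps Gnas, was in the table and is counted among the neighbours. Whether it is Nespas under another symbol was not checked. Linking genes on a chromosome whose lowest coordinates lay within 3 Mb of each other gave 18 groups, because the Igf2-H19 and Kcnq1 clusters adjoin on distal chromosome 7. The rule uses gene symbols and positions and no measured value.

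Polyadenylated RNA was sequenced from primary oligodendrocyte progenitors, the proliferating precursors of myelin-forming glia, taken at postnatal day 7 from male and female pups. All pups carried Ehmt1fl/fl;Ehmt2fl/fl, so both groups had loxP-flanked alleles of the 2 partner histone H3 lysine 9 methyltransferases. The 4 control cultures received Ad-RFP, an adenovirus for red fluorescent protein alone, and the 4 cKO cultures received Ad-RFP-iCre, which adds Cre recombinase. Cells were captured by immunopanning, kept in medium holding 10 ng/mL PDGF-AA with 20 ng/mL bFGF, exposed to virus for 6 hours at a multiplicity of infection of 10, and collected 72 hours after infection. Replicates are numbered 1, 3, 4 and 6 in both groups, and the labels name a batch for each, holding 1 control and 1 cKO library. For both libraries of replicate 3 the label is Batch-3-2, called batch 3 here, and what the added 2 marks is not known. The labels leave unsaid whether a batch is its own set of animals, so p-values measure the spread between these pairs, which may be partly technical. The labels do not say that infected cells were sorted. Reads were not assigned to parental alleles, so each value is the sum of both copies.

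An imprinted cluster usually holds an imprinting control region whose DNA is methylated on 1 parental copy, and that mark sets which genes of the cluster are read from which copy. Several clusters carry a long noncoding RNA, such as Airn or Kcnq1ot1, that keeps neighbouring genes silent on the chromosome that makes it. G9a, the product of Ehmt2, is known to be needed for this silencing of some genes in the mouse placenta. Many imprinted genes act in fetal growth, metabolism and the nervous system, and some of them are read from both copies, or from the other copy, in particular brain cells.

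Libraries held between 43542742 and 65374488 estimated counts. Both targeted genes fell in all 4 pairs, with Ehmt1 at 88.8 to 100.2 CPM (read counts scaled to library size, with TMM factors) in control and 36.1 to 45.7 CPM in cKO libraries, and Ehmt2 at 154 to 196 CPM and 51.7 to 64.5 CPM. The groups did not overlap for either gene, a separation that 3.68% of all 18102 genes tested showed. Counts cover whole genes, so what remains does not measure undeleted transcript. All 8 progenitor markers were present, with a summed level of 8626 to 13214 CPM in control and 7932 to 11892 CPM in cKO libraries, lower in cKO in 4 of 4 pairs. Of these 8, Pdgfra, the PDGF-AA receptor (log2 fold change -0.31 ± 0.03, edgeR adjusted p = 0.000227), and Ptprz1 (-0.11 ± 0.03, edgeR adjusted p = 0.0348) fell, Lhfpl3 rose (0.13 ± 0.03, edgeR adjusted p = 0.0181), and 5 did not pass. Gpr17, among these 5, weighs heavily on the sum in batches 4 and 6. It stood at 5377 and 3905 CPM there in control and at 4286 and 2879 CPM in cKO. In batches 1 and 3 Gpr17 was higher in cKO. Microglial markers summed to at most 1.44 CPM (1 tested, higher), with Cx3cr1, Aif1, Tmem119 and C1qa not in the table, endothelial markers to at most 5.25 CPM (0 of 2 tested changed), and fibroblast and mural markers to at most 4.71 CPM (2 of 5 tested higher). Choroid plexus and ependymal markers summed to at most 37.0 CPM, and the 1 tested did not pass. Neuron markers summed to 113 to 284 CPM in control and 169 to 313 CPM in cKO, and 4 of 7 tested rose, with Slc17a6 not in the table. Dcx weighs heavily on this sum, at 85.3 to 243 CPM in control and 120 to 256 CPM in cKO. Of the 7, 5 had a positive and 2 a negative log2 fold change, and Rbfox3 was lower in cKO in 4 of 4 pairs without passing. Myelinating oligodendrocyte markers summed to 249 to 1942 CPM and 309 to 2987 CPM, and 4 of 7 rose. Astrocyte markers summed to 704 to 2211 CPM and 687 to 2089 CPM, with 2 of 6 higher and 2 lower. Of all genes tested, 20.5% passed, and no test compares these marker lists with all genes. The part of these cell types in the results below was not tested, and in bulk RNA a change in the number of cells of a type and a change in RNA per cell cannot be told apart.

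Promoter sequences are shown for Peg3, Zim1, Meg3 and Snrpn, all members that rose. Usp29, Grb10, Rian, Gnas and Inpp5f also changed and have windows that are not printed. The printed windows are a selection and do not show how common a motif is among members. RefSeq entries (GRCm38.p6, the same assembly as mm10) gave 51 promoter windows of 300 bases for 35 of the 44 members, from 250 bases before to 50 bases after a start. Peg3 and Usp29 start from opposite strands, and 263 of the 300 bases of their windows are the same DNA. Capitals mark TGCCGC or its complement GCGGCA, the core of the site bound by the imprint-protecting factor ZFP57, and TGACGTCA, the palindromic cyclic AMP response element, which was added after the sequences were seen. The Meg3 and Snrpn windows are those of their several windows that hold TGCCGC, and the Peg3 window holds TGACGTCA alone. Among those not printed, a Grb10 window holds TGCCGC, and the windows of Rian, Gnas and Inpp5f hold neither element.
Peg3, chr7:6730370-6730669, minus strand: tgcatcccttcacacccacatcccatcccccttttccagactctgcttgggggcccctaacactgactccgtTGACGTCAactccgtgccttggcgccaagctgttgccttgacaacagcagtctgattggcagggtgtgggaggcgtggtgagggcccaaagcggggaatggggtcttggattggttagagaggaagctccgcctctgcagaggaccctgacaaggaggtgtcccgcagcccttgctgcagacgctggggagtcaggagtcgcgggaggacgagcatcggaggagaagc
Zim1, chr7:6696383-6696682, minus strand: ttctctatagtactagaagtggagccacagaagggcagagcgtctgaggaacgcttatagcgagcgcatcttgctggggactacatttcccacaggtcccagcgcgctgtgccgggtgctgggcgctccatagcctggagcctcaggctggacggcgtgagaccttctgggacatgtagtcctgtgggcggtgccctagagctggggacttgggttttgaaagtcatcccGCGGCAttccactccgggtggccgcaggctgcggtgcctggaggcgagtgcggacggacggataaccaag
Meg3, chr12:109540746-109541045, plus strand: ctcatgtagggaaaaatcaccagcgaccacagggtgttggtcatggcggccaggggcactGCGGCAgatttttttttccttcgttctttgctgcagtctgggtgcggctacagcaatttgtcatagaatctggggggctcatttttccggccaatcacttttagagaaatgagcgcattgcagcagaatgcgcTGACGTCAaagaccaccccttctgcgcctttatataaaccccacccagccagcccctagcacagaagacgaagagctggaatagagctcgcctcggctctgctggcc
Snrpn, chr7:60005150-60005449, minus strand: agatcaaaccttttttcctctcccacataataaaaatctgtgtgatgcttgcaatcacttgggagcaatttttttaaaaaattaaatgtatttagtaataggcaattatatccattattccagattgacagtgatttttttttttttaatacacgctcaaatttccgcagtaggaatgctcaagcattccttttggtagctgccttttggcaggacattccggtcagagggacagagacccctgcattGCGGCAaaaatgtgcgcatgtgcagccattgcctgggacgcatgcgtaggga
Searched on both strands, TGCCGC was present in 15 of the 51 member windows (29.4%) and in 11.6% of all 32851 windows of that length. Some windows overlap: Snrpn and Snurf have the same window, and Mest and Gnas each have a pair of near-identical ones. With overlapping windows merged, a step added after the windows were seen, TGCCGC was in 13 of 47 member stretches (27.7%) and in 11.5% of 29061 stretches overall. Member windows had a median GC content of 57.3% and a median CpG observed-to-expected ratio of 0.62, against 52.7% and 0.38 for all windows. The element TGACGTCA was in 4 member windows, those of Peg3, Usp29, Meg3 and Zdbf2, and in 1.79% of all windows. The Peg3 and Usp29 windows hold the same copy of it, so merging leaves 3 of 47 member stretches and 1.71% of all stretches. A match of letters is a description and shows no binding.

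Most members were expressed in control progenitors, and their levels spanned several orders of magnitude per length of transcript. Dividing CPM by the exonic length in kilobases (GENCODE M21, available for 39 of 40 members but not Rian) put Nnat, a small membrane proteolipid of developing brain, highest at a control mean of 237 CPM per kb. Mest, a hydrolase-fold protein of growing tissues, followed at 168 CPM per kb, then Gnas, the stimulatory G protein alpha subunit locus, at 90.1, and Nap1l5, an intronless nucleosome assembly gene, at 70.3 CPM per kb. At the low end were Rtl1, a retrotransposon-derived gene, at 0.00662 CPM per kb, Mirg, a microRNA host, at 0.0325, and Igf2, the fetal growth factor, at 0.0677 CPM per kb. Rtl1 had 1 to 4 counts in each library. Snurf, the upstream reading frame of the Snrpn transcript, had 19.9 estimated counts in control replicate 3 and under 1 in every other library, and overlaps Snrpn on the same strand, so reads cannot be divided between them with confidence. Neither passed the filter on low counts, which left 38 members to test, 34 of them with a control mean of at least 1 CPM.

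**Figure D1:**
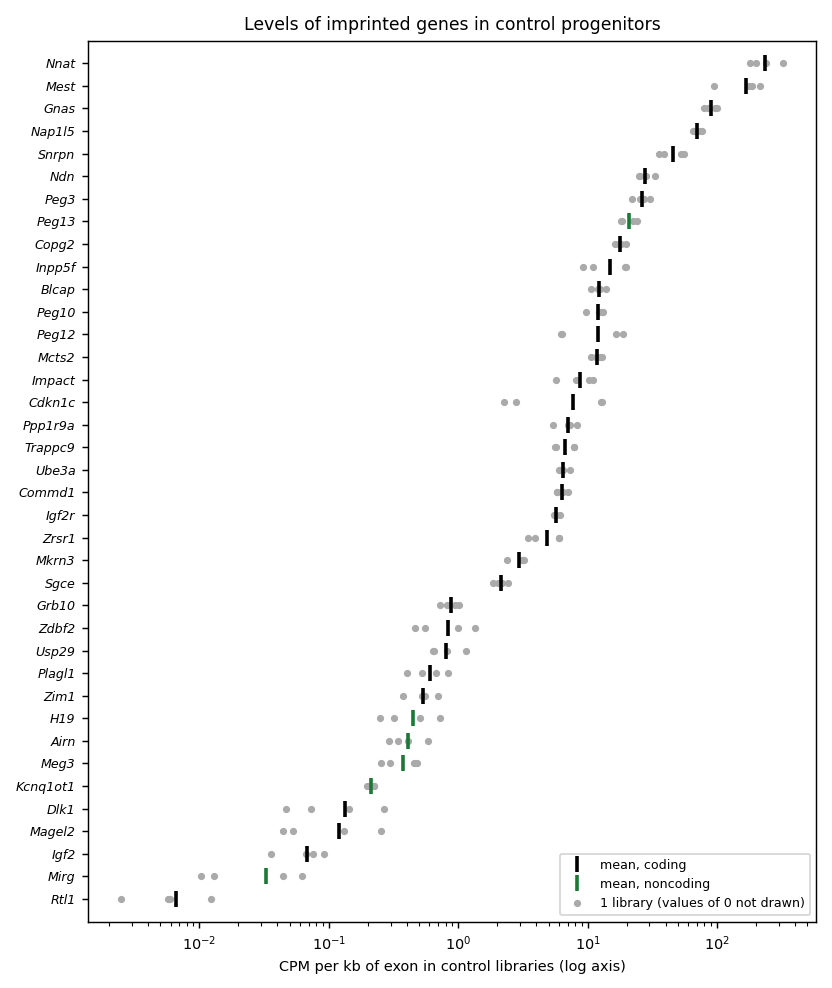
CPM per kilobase of exon in the 4 control libraries (grey points, log axis) for 38 members with a length, without Rian, which has no matched length, and Snurf, with the mean of the 4 as a bar (green for noncoding RNAs). Nnat and Mest lead at 237 and 168 CPM per kb, and Rtl1 is lowest at 0.00662.

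Of the 38 members tested, 9 were higher and 2 were lower in cKO than in control, and 27 passed in neither direction. The test was edgeR's quasi-likelihood test with the replicate number as a block (4 pairs), at a Benjamini-Hochberg adjusted p of 0.05 over all genes tested, and "rose" and "fell" are used for members past it. Among all 18102 genes, 20.5% passed, with 10% higher and 10.4% lower, against 28.9% of the members. No test sets the members apart from all genes. Calls fell in 8 of the 19 clusters. The median log2 fold change of cKO over control was 0.05 for members and -0.01 for all genes, and 25 of the 38 members had a positive value. Changes were small: called members changed by a median of 0.28 on the log2 scale, the largest by 0.58, and no tested member changed by as much as 2-fold. Without replicate 1 the numbers were 5 higher and 1 lower, without replicate 3 they were 7 and 1, without replicate 4 they were 9 and 0, and without replicate 6 they were 7 and 3. With group alone in the edgeR model and no block, 0 members passed (lowest adjusted p 0.922), 2 of them had an unadjusted p under 0.05, and 3 of all 18102 genes passed (0.0166%, with 0.00552% higher and 0.011% lower).

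**Figure D2:**
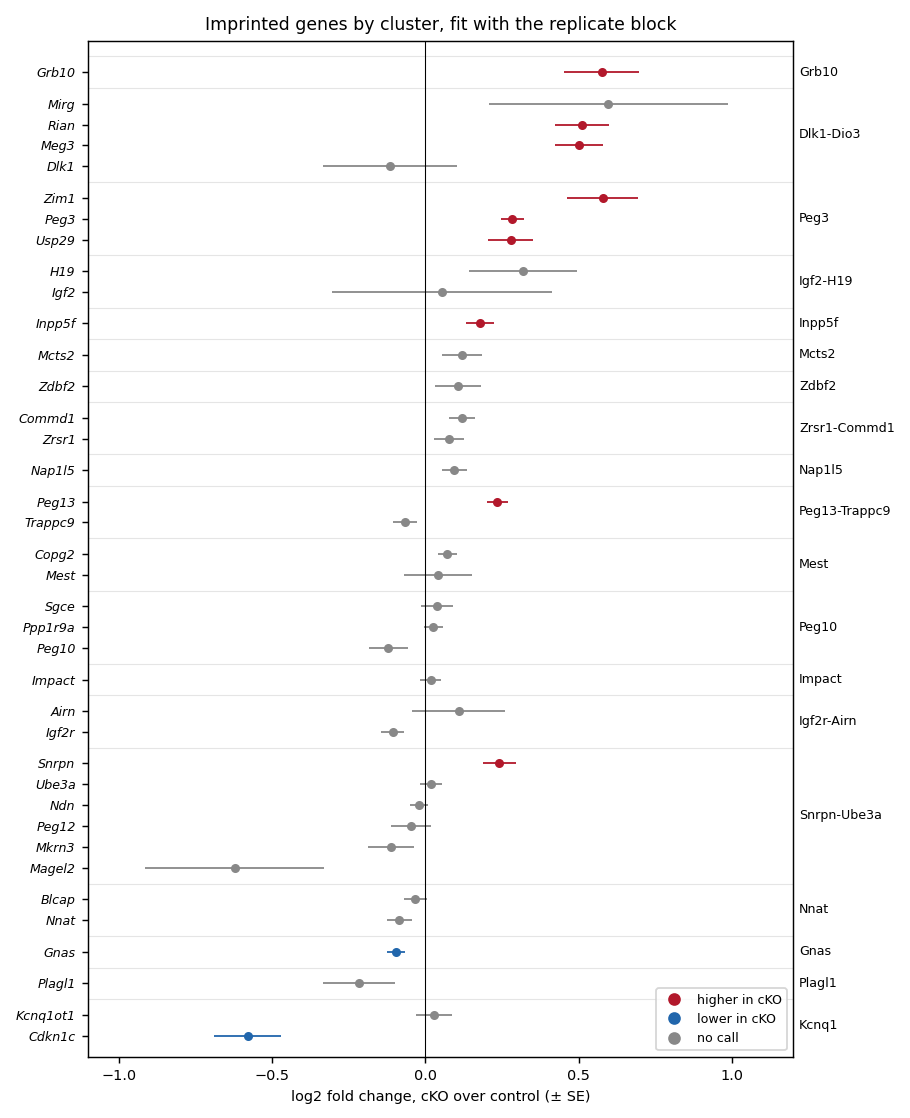
Log2 fold change of cKO over control with its standard error for the 38 members tested, grouped by cluster, from the edgeR fit with the replicate block (n = 4 pairs). Red marks the 9 members higher in cKO, blue the 2 lower, and all 3 members of the Peg3 cluster lie to the right of 0.

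The Peg3 cluster on proximal chromosome 7 was the 1 cluster with more than 1 tested member in which every member rose. Peg3, a large zinc finger protein read from the paternal copy (chromosome 7, 6703892 to 6730431, mm10, minus strand), stood at 401, 337, 292 and 361 CPM in control replicates 1, 3, 4 and 6. In the cKO libraries of the same numbers it stood at 481, 439, 325 and 457 CPM, higher in 4 of 4 pairs although the groups overlap. Its log2 fold change was 0.28 ± 0.04 (SE, n = 4 pairs; edgeR adjusted p = 0.000788), a rise of 21.8%.

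Usp29, a paternally expressed ubiquitin protease gene (6730578 to 6967219, plus strand), starts 147 bases from the start of Peg3 in the table and shares its promoter region. Its levels were 14.7, 20.7, 11.8 and 11.5 CPM in control and 18.1, 27.6, 11.6 and 15.01 CPM in cKO replicates 1, 3, 4 and 6. Batch 4 showed next to no difference, and the other 3 pairs were higher in cKO (log2 fold change 0.28 ± 0.07, edgeR adjusted p = 0.0234). The call of Usp29 was lost without replicate 1, 3 or 6 (edgeR adjusted p 0.0850, 0.139 and 0.0664). The Peg3 to Usp29 ratio within a library differed by 0.01 on the log2 scale between the groups (SD 0.11 over 4 pairs; exact paired permutation test, 2-sided, p = 1).

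Zim1, the maternally expressed zinc finger gene of the cluster (6671269 to 6696450, minus strand), was low and had the largest fold change of the 3. It stood at 5.63, 4.50, 4.22 and 3.05 CPM in control and at 7.95, 5.79, 5.73 and 6.26 CPM in cKO replicates 1, 3, 4 and 6. It was the only tested member whose groups did not overlap, which 3.68% of all tested genes also showed. Its log2 fold change was 0.58 ± 0.12 (edgeR adjusted p = 0.0064), and the within-pair differences ran from 0.36 to 1.03, the highest in batch 6. No gene outside the set with a lowest coordinate within 200 kb of those of these 3 members passed the filter.

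**Figure D3:**
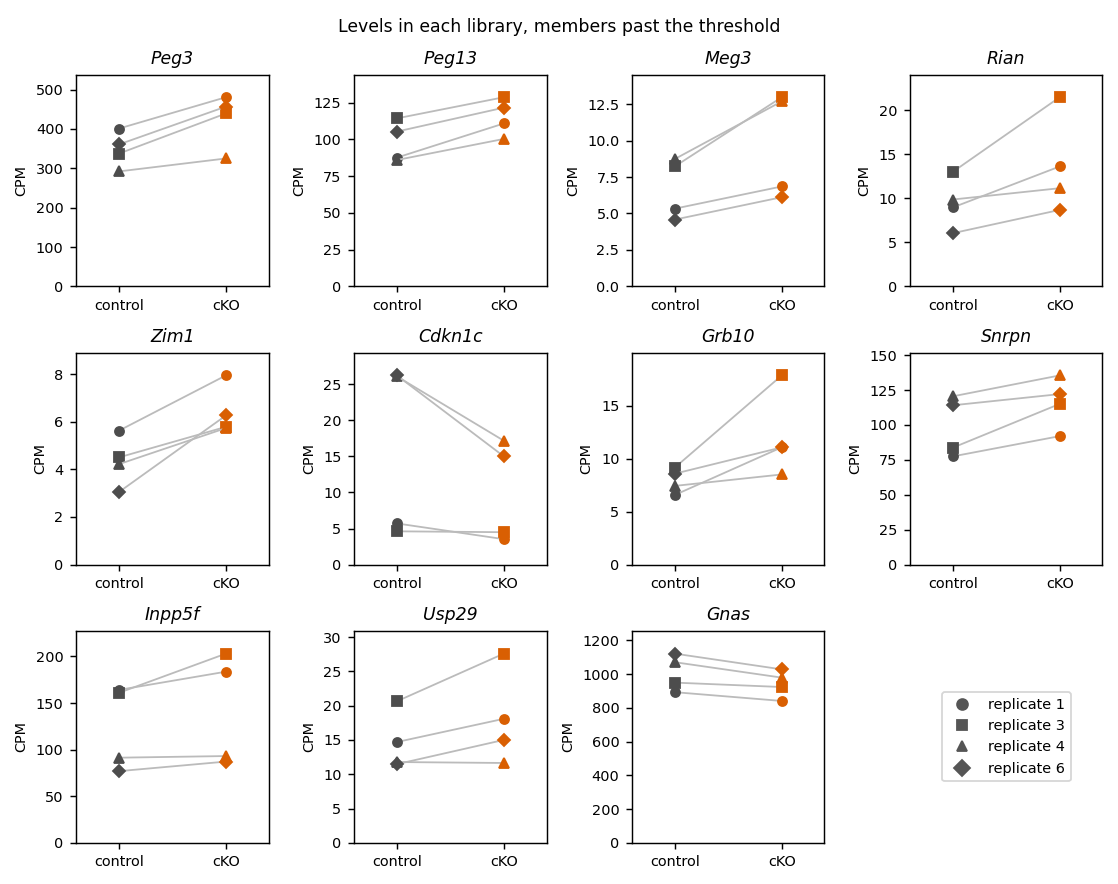
CPM in each library for the 11 members past the threshold, control on the left and cKO on the right of each panel, with lines joining the 2 libraries of a batch and symbols naming the replicate. Lines rise in all 4 batches for 8 of the 9 members called higher, while Usp29 is level in replicate 4.

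In the Dlk1-Dio3 cluster on distal chromosome 12, the 2 maternally expressed noncoding RNAs with more than 1 CPM rose, and the paternally expressed growth regulator gene Dlk1 did not pass. Meg3, the RNA that heads the maternal transcripts (109541001 to 109571726, plus strand), stood at 5.33, 8.23, 8.74 and 4.58 CPM in control and 6.85, 12.98, 12.7 and 6.12 CPM in cKO replicates 1, 3, 4 and 6. Batches 3 and 4 were high and batches 1 and 6 low in both groups. The log2 fold change of Meg3 was 0.50 ± 0.08 (edgeR adjusted p = 0.00165), higher in 4 of 4 pairs.

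Rian, which hosts small nucleolar RNAs and starts 62807 bases downstream of the start of Meg3 in the table, stood at 8.96, 13.004, 9.86 and 6.04 CPM in control. In cKO it stood at 13.6, 21.5, 11.2 and 8.68 CPM, again higher in every pair, though by little in batch 4 (log2 fold change 0.51 ± 0.09, edgeR adjusted p = 0.00343). The Meg3 to Rian ratio differed between groups by -0.01 on the log2 scale, with an SD of 0.26 over pairs (exact paired permutation test, 2-sided, p = 1). Mirg, farther along the same strand, was near the limit of counting at 4 to 29 counts per library, and its log2 fold change of 0.60 ± 0.39 did not pass. Dlk1 stood at 0.265 to 1.51 CPM in control and 0.226 to 1.36 CPM in cKO libraries, with a log2 fold change of -0.12 ± 0.22 that did not pass. As a description over the 8 libraries, which share batches, the 5 genes whose log2 CPM tracked that of Meg3 most closely among 14322 genes of at least 1 CPM were Mmadhc, Sh3bgrl3, Imp3, Frrs1l and Ercc8, with likeness (Pearson) from 0.94 to 0.98. Rian came at rank 215 of that order, with 0.77.

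Grb10, alone among the members in its cluster on proximal chromosome 11, rose. It encodes an adaptor that restrains insulin receptor signalling and is read from the maternal copy in most tissues but the paternal copy in neurons. Grb10 (11930508 to 12038683, minus strand) stood at 6.57, 9.15, 7.42 and 8.58 CPM in control and 11.1, 17.8, 8.50 and 11.1 CPM in cKO replicates 1, 3, 4 and 6. Batch 3 was the highest in both groups, and the smallest difference was in batch 4, at 0.19 on the log2 scale. Its log2 fold change was 0.58 ± 0.12 (edgeR adjusted p = 0.015), and without replicate 1 it did not pass (edgeR adjusted p = 0.0603). Ddc, the aromatic amino acid decarboxylase gene that is imprinted in the developing heart, lies beside Grb10, and their lowest coordinates are 116407 bases apart. Ddc rose 6.16-fold, from 0.334 ± 0.123 to 2.04 ± 0.431 CPM (SD, n = 4), with no overlap between groups (log2 fold change 2.62 ± 0.19, edgeR adjusted p = 2.03e-05). Cobl, an actin nucleator gene beyond Grb10, fell in all 4 pairs, from 7.92 ± 4.73 to 4.67 ± 3.18 CPM (log2 fold change -0.77 ± 0.14, edgeR adjusted p = 0.00581). Cobl was singled out after its values were seen, since it lies beside Grb10 and outside the naming rule.

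In the Snrpn-Ube3a cluster on chromosome 7, the region of the Prader-Willi and Angelman syndromes, 1 of 6 tested members rose. Snrpn, a spliceosomal protein gene of the paternal copy (59982495 to 60140219, minus strand), stood at 77.5, 83.7, 121 and 114 CPM in control and 92.0, 115, 135 and 122 CPM in cKO replicates 1, 3, 4 and 6. The log2 fold change of Snrpn was 0.24 ± 0.05 (edgeR adjusted p = 0.0179), and without replicate 1 it did not pass (edgeR adjusted p = 0.066). The long transcript Snhg14, which runs from the Snrpn promoter region over small nucleolar RNA genes and opposite to Ube3a on the paternal copy, is annotated here beside the set. Snhg14, singled out after its values were seen, rose from 11.02 ± 2.65 to 13.7 ± 3.35 CPM (log2 fold change 0.32 ± 0.06, edgeR adjusted p = 0.00624), higher in 4 of 4 pairs. Ube3a, the ubiquitin ligase lost in Angelman syndrome, stood at 125 to 151 CPM in control and 124 to 144 CPM in cKO (log2 fold change 0.02 ± 0.04, not past the threshold).

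The upstream part of the same cluster held no call. Ndn, which encodes the MAGE protein necdin, differed by -0.02 ± 0.03 on the log2 scale, with levels of 92.2 to 123 CPM in control and 89.4 to 122 CPM in cKO. Mkrn3, a RING finger gene (-0.11 ± 0.07), Peg12, a Frat family gene (-0.05 ± 0.06), and Magel2, a regulator of endosomal sorting (-0.62 ± 0.29), did not pass. Magel2 had 4 to 65 counts per library and was lower in cKO in 4 of 4 pairs.

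Among pairs in which one imprinted gene lies inside another, Peg13 rose while its host Trappc9 did not pass. Peg13, a paternally expressed noncoding RNA (chromosome 15, 72805600 to 72810324, minus strand), stood at 87.6, 114, 85.9 and 105 CPM in control and 111, 129, 100.2 and 122 CPM in cKO replicates 1, 3, 4 and 6. The rise was seen in each batch and was largest in batch 1 (log2 fold change 0.23 ± 0.03, edgeR adjusted p = 0.00125). Trappc9, a subunit of a vesicle tethering complex on the same strand, went from a mean of 53.4 ± 10.2 CPM (SD, n = 4) to 50.8 ± 7.73 CPM, a log2 fold change of -0.07 ± 0.04. The Peg13 to Trappc9 ratio was higher in cKO by 0.30 on the log2 scale (SD 0.07, higher in 4 of 4 pairs). Its 2-sided p was 0.125 by exact permutation within pairs, the smallest that 4 pairs allow, and 0.5 after Benjamini-Hochberg adjustment over the 8 ratios compared.

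The same ratio was formed for the other intronic genes. Mcts2, a retrogene of a translation factor inside H13, was higher relative to its host by 0.23 on the log2 scale (SD 0.01, 4 of 4 pairs, exact permutation p = 0.125, adjusted 0.5), while neither Mcts2 (0.12 ± 0.07) nor H13 (-0.11 ± 0.04), which encodes signal peptide peptidase, passed by itself. Nap1l5 against Herc3, Nnat against Blcap and Zrsr1 against Commd1 differed by 0.07, -0.05 and -0.04 on the log2 scale (SD 0.13, 0.11 and 0.06), with exact permutation p-values of 0.5, 0.375 and 0.375. Peg13 and Mcts2 lie on the strand of their hosts, and the other 3 lie opposite. The labels and processing notes do not state a strand setting, so reads of an inner gene and its host may be mixed.

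Of the 4 tested members of the Kcnq1 and Igf2r clusters, each with a silencing long noncoding RNA, 1 fell and 0 rose. In the Kcnq1 cluster, Cdkn1c, which encodes the cyclin-dependent kinase inhibitor p57 and is read from the maternal copy, fell (chromosome 7, 143458339 to 143461050, minus strand). It stood at 5.71, 4.61, 26.1 and 26.2 CPM in control and 3.52, 4.49, 17.2 and 15.01 CPM in cKO replicates 1, 3, 4 and 6. Batches 4 and 6 were severalfold higher than batches 1 and 3, and batch 3 showed almost no difference between the groups. The log2 fold change was -0.58 ± 0.11 (edgeR adjusted p = 0.00797), and without replicate 4 it was -0.55 with an edgeR adjusted p of 0.0505. Kcnq1ot1, the RNA that silences this cluster on the paternal copy, varied little, at 20.8, 20.9, 19.05 and 18.4 CPM in control and 21.6, 19.5, 18.4 and 21.2 CPM in cKO. Its log2 fold change of 0.03 ± 0.06 did not pass.

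In the Igf2r cluster on chromosome 17, Airn, the antisense RNA of the paternal copy, stood at 1.24, 1.48, 2.11 and 1.04 CPM in control and 1.59, 1.47, 2.00 and 1.19 CPM in cKO replicates 1, 3, 4 and 6. The groups overlapped throughout, and its log2 fold change of 0.11 ± 0.15 did not pass. Igf2r, the receptor that clears Igf2 and sorts lysosomal enzymes, stood at 51.5 to 56.8 CPM in control and 45.4 to 53.9 CPM in cKO. It was lower in 4 of 4 pairs without passing (log2 fold change -0.11 ± 0.04, edgeR adjusted p = 0.0723). Airn and Igf2r overlap on opposite strands, so their reads may be mixed. Their ratio differed by 0.22 on the log2 scale (SD 0.18, higher in 3 of 4 pairs, exact permutation p = 0.25).

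H19, the maternally expressed noncoding RNA beside Igf2, stood at 0.784, 0.615, 1.78 and 1.25 CPM in control and 0.969, 0.670, 1.90 and 2.02 CPM in cKO replicates 1, 3, 4 and 6. It was higher in 4 of 4 pairs without passing (log2 fold change 0.32 ± 0.18, edgeR adjusted p = 0.23). Igf2 had 6 to 43 counts per library and a log2 fold change of 0.05 ± 0.36. Over the 7 noncoding members tested, all 7 log2 fold changes were positive and 3 passed, those of Meg3, Rian and Peg13 (42.9%). That of Kcnq1ot1 turned negative without replicate 6. Gnasas1, the antisense RNA at Gnas counted among the neighbours, had a negative value (-0.34 ± 0.19, lower in 3 of 4 pairs) that did not pass. The 31 tested coding members had 18 positive and 13 negative values, with 6 higher and 2 lower (25.8%). Among members usually read from the paternal copy, 4 of 22 rose and 0 fell (18.2%), and of those usually read from the maternal copy, 3 of 12 rose and 1 fell (33.3%). Of the 4 members classed as mixed, Grb10 and Inpp5f rose, Gnas fell and Blcap did not pass (75%). Of all genes tested, 20.5% passed, and no test compares these groups with each other or with all genes.

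Gnas and Inpp5f were the remaining members past the threshold, and both changed by little. Gnas stood at 893, 949, 1070.3 and 1121 CPM in control and 841, 923, 979 and 1028 CPM in cKO replicates 1, 3, 4 and 6, lower in each pair. Its log2 fold change was -0.10 ± 0.03 (edgeR adjusted p = 0.043), and the call was lost with upper-quartile scaling (edgeR adjusted p = 0.0789) and without any 1 of the 4 replicates (edgeR adjusted p 0.0763 to 0.261). Its counts pool several products of the locus that are imprinted differently. Inpp5f, an inositol phosphatase gene with an imprinted short form, stood at 164, 161, 91.3 and 76.9 CPM in control and 184, 203, 93.1 and 87.1 CPM in cKO. All 4 libraries of batches 1 and 3 were above all 4 of batches 4 and 6, and the rise was largest in batch 3 (log2 fold change 0.18 ± 0.04, edgeR adjusted p = 0.0213). It did not pass without replicate 1, 3 or 6 (edgeR adjusted p 0.0681, 0.0991 and 0.0603).

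The other clusters held no call. Mest and its neighbour Copg2, a coat protein subunit gene, differed by 0.04 ± 0.11 and 0.07 ± 0.03 on the log2 scale. Mest was lower in cKO in batches 1 and 3 and higher in batches 4 and 6. Peg10, a retrotransposon-derived gene (-0.12 ± 0.06), Sgce, the dystonia gene epsilon-sarcoglycan (0.04 ± 0.05), and Ppp1r9a, the actin scaffold neurabin (0.03 ± 0.03), did not pass. Nnat (-0.08 ± 0.04) and Blcap (-0.03 ± 0.04), Zrsr1 (0.08 ± 0.05) and Commd1 (0.12 ± 0.04), Nap1l5 (0.09 ± 0.04), Zdbf2 (0.11 ± 0.07), Plagl1 (-0.22 ± 0.12) and Impact (0.02 ± 0.04) did not pass either. The last of these, a regulator of the Gcn2 stress kinase, had within-pair log2 differences of 0.00 to 0.04.

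Levels differed widely between batches. For all 38 tested members the range between batch means on the log2 scale was wider than the cKO difference, with a median range of 0.66 for members and 0.55 for all genes. The median absolute log2 fold change was 0.11 for members and 0.12 for all genes. A range from the lowest to the highest batch mean tends to exceed an average difference. The share of all genes with the wider range was not counted. Dlk1 (range 2.38), Magel2 (2.37) and Cdkn1c (2.23) varied most. Dlk1, Magel2, Peg12 and Zdbf2 were high in batches 1 and 3 and low in batches 4 and 6, as Inpp5f was. Peg12, for example, stood at 43.4 and 49.6 CPM in control replicates 1 and 3 and at 16.8 and 16.5 CPM in replicates 4 and 6. Cdkn1c and H19 had the opposite order. Dnmt1, the methyltransferase that copies DNA methylation at replication, also followed the batches, at 399.8 and 459 CPM in control replicates 1 and 3 and 193 and 133 CPM in replicates 4 and 6. Summed myelinating oligodendrocyte markers ran the other way, at 556 and 249 CPM against 1942 and 1124 CPM in the same libraries. The part of cell state in these ranges was not tested.

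**Figure D4:**
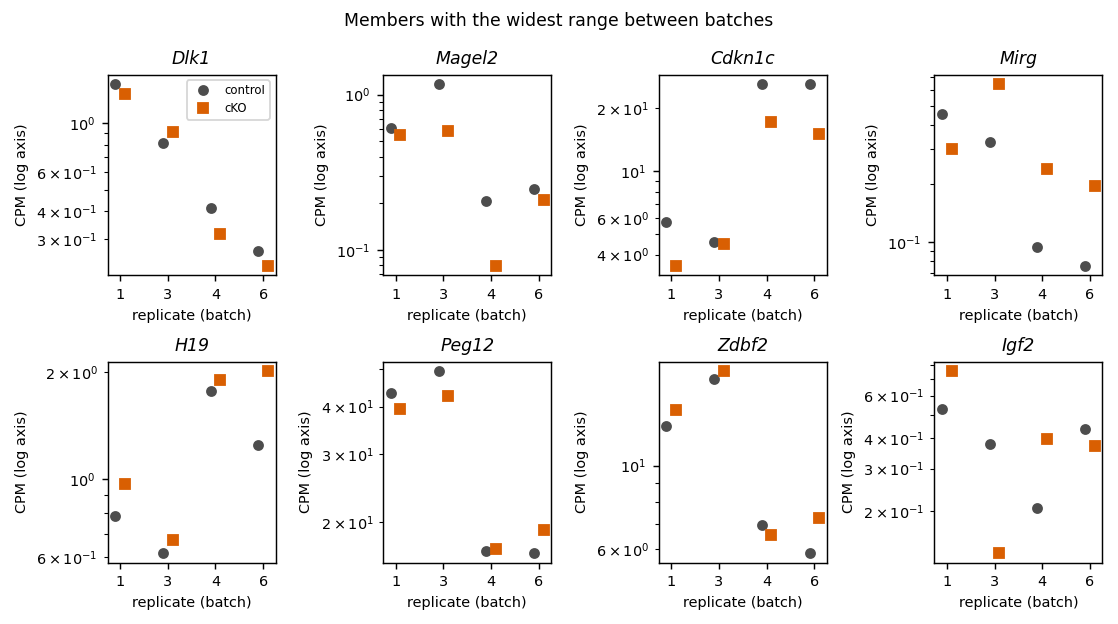
CPM (log axis) by replicate for the 8 tested members with the widest range between batches, with control as dark circles and cKO as orange squares. Cdkn1c is at 15.01 to 26.2 CPM in batches 4 and 6 and at 3.52 to 5.71 CPM in batches 1 and 3, and Peg12 has the opposite order.

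Genes lying near the members passed in both directions. Of 69 tested genes whose lowest coordinate lay within 200 kb of that of a member, 8 rose and 5 fell, or 18.8%, beside 20.5% of all genes. The 69 include genes known to be imprinted, among them Ddc, Cpa4, Casd1 and Cd81, which are counted again with the other imprinted genes below. Within 100 kb, 2 of 29 rose and 1 fell (10.3%), and within 500 kb, 21 of 167 rose and 11 fell (19.2%). At 200 kb the median log2 fold change was 0.03. By rule the 4 with the smallest p were Ddc, Atp5e, Cpa4 and Casd1, and all 4 rose in 4 of 4 pairs. Atp5e, a subunit of the mitochondrial ATP synthase beyond Gnas, went from 68.8 ± 1.53 to 79.4 ± 2.18 CPM, with no overlap between groups and a log2 fold change of 0.21 ± 0.03. Casd1, a sialic acid acetyltransferase gene beside Sgce, went from 18.8 ± 1.73 to 22.6 ± 2.20 CPM (0.27 ± 0.05). Cpa4, a carboxypeptidase gene imprinted with Mest, went from 0.562 ± 0.0844 to 1.53 ± 0.650 CPM (1.38 ± 0.24). Without replicate 1, 3 or 4 the number of neighbours that fell was 1, 2 and 2. In the Gnas region 2 of 7 neighbours rose and 2 fell, and in the Kcnq1 region 1 of 8 rose and 2 fell.

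**Figure D5:**
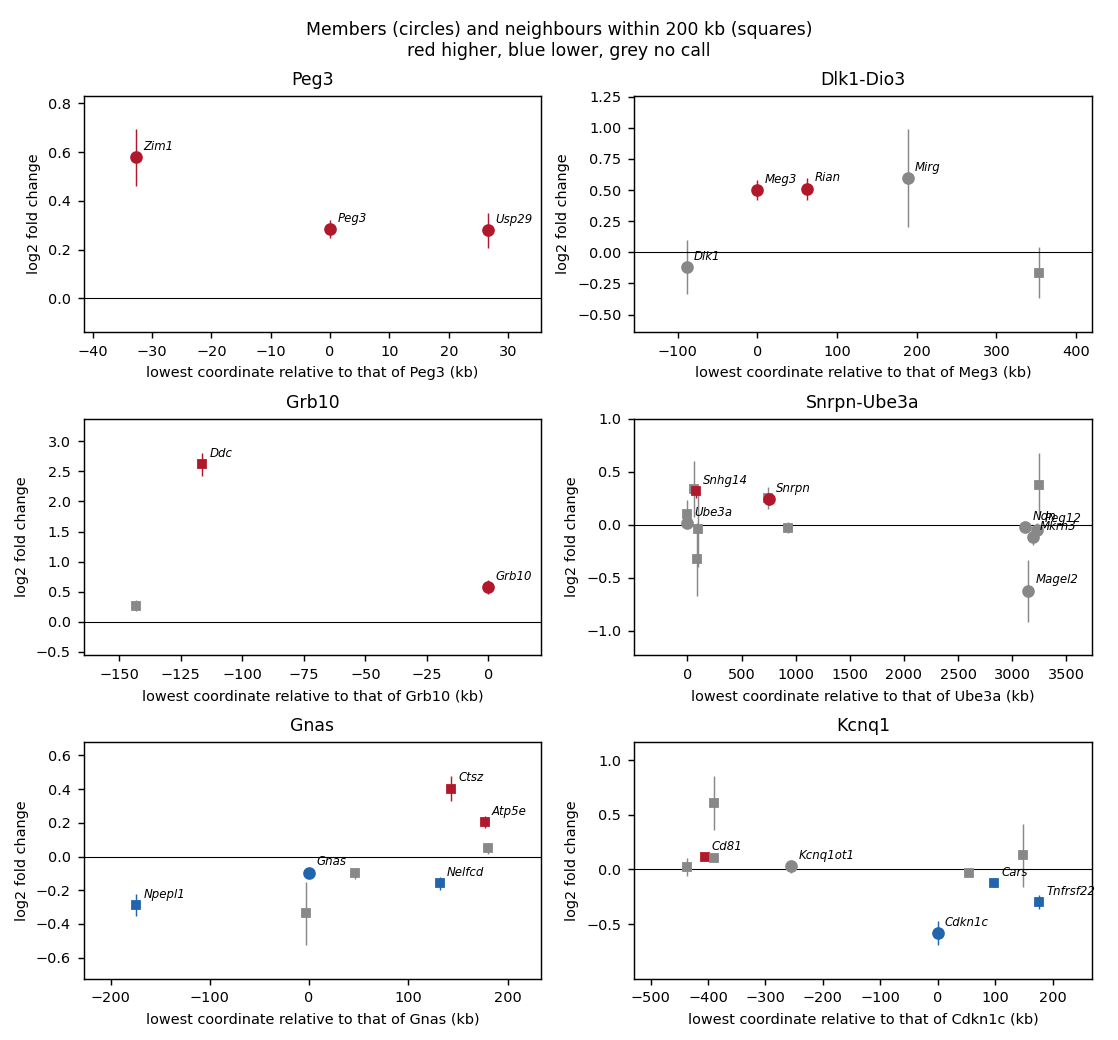
Log2 fold change of cKO over control with its standard error (y axis) against the position of each gene's lowest coordinate in kb relative to that of a reference member (x axis) in 6 clusters, with members as circles and other tested genes within 200 kb as squares. Meg3 and Rian lie together near 0.5, while Ddc at 2.62 stands above Grb10 at 0.58.

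Other genes known to be imprinted moved in both directions. Of 35 tested outside the set, 7 rose and 4 fell (31.4%, beside 20.5% of all genes), with a median log2 fold change of -0.01. No test compares them with all genes. Some of the 35, such as Ddc, Cpa4, Casd1 and Cd81, were also counted among the neighbours above. The 6 named by rule were Ddc, described above, Ntm, a neuronal adhesion gene that fell (-0.37 ± 0.04), Pon2, a lactonase gene of the Peg10 region that fell from 25.7 ± 11.3 to 18.9 ± 9.74 CPM (-0.47 ± 0.06), Qpct, a glutaminyl cyclase gene that rose (0.35 ± 0.05), Cpa4 and Casd1. Each moved the same way in 4 of 4 pairs, and Pon2 and Casd1, on the 2 sides of Peg10, moved in opposite directions.

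Of 14 tested factors that keep or read imprints, 1 rose and 2 fell, or 21.4%, beside 20.5% of all genes. Trim28, the corepressor that ZFP57 brings to imprinting control regions, fell from 351 ± 57.8 to 317 ± 45.4 CPM (log2 fold change -0.14 ± 0.03, edgeR adjusted p = 0.00616). Setdb1, the H3K9 methyltransferase that works with Trim28, fell from 121 ± 11.2 to 109 ± 5.97 CPM (-0.14 ± 0.03, edgeR adjusted p = 0.0112). Tet1, a DNA demethylating enzyme, rose from 68.0 ± 5.32 to 77.0 ± 9.94 CPM (0.17 ± 0.04, edgeR adjusted p = 0.00947). Atrx, a chromatin remodeler, was higher in 4 of 4 pairs without passing (0.18 ± 0.06, edgeR adjusted p = 0.0924). Zfp57 (0.09 ± 0.06), Zfp445 (-0.03 ± 0.03), Dnmt1 (-0.03 ± 0.05) and Uhrf1 (0.07 ± 0.13) did not pass. Setdb1 did not pass without replicate 3 (edgeR adjusted p = 0.0762), and neither Setdb1 nor Trim28 passed without replicate 4 (0.0673 and 0.0517). Without replicate 6, 3 factors fell.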

How the data were processed

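Per the labels' protocols, libraries were made from oligo-dT captured mRNA from RNA whose integrity number was 8 or more. Per the submitters' processing notes, the authors used Partek, cutadapt, STAR and DESeq2 with mm10; these do not state versions, gene annotation or strand setting. The deposited values are estimated counts per gene, not normalized, and 52% are not whole, so genes that share sequence can exchange counts. The table gives the end of a gene 1 base past its last base, and 1 was subtracted for printed ends.

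Counts were rounded, genes kept by edgeR's filterByExpr (minimum count 10; 18102 of 24155 kept), scaled by TMM, and tested with edgeR 4.0.16 glmQLFit (robust) and glmQLFTest, 2-sided, with the replicate number as a block and Benjamini-Hochberg adjustment over all genes tested. Standard errors come from the log2 fold change and F. CPM use TMM-adjusted library sizes, and within-pair log2 differences a prior count of 2. Libraries held 43542742 to 65374488 counts. Error from counting and spread between pairs were not separated. Standard errors were widest, at 0.22 to 0.39, for Dlk1, Magel2, Igf2 and Mirg, the tested members under 1 CPM in control. The labels' batch names pair the libraries, and deviations from group means correlated at 0.75 to 0.79 between same-numbered libraries and at most 0.39 otherwise. No 2 libraries of a group were duplicates (chi-square per degree of freedom at least 41.6).

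On simulated counts for 17828 genes with this fit, 40% of log2 changes of 0.25, 92% of 0.5, 92% of 1 and 100% of 2 were called. False calls were 19 among 181, a larger share than the 0.05 set as the threshold. The changed genes, 50 for each size, were drawn from genes above a minimum mean count, and 17628 genes were unchanged. In the real data 20.5% of genes passed. The simulated rates therefore need not hold for the members, least of all for those with few counts. The members and lists were chosen with earlier results of these data known. Members past the threshold and noncoding RNAs of at least 1 CPM were given in every library, with up to 6 other imprinted genes, 4 factors and 4 neighbours of smallest p. Alternatives were the fit without the block, RLE and upper-quartile scaling, other filters, unrounded counts, DESeq2 1.42.0, limma-voom 3.58.1, other neighbour windows and each pair left out.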

Additional observations from a re-analysis of the deposited data

Results flagged for a closer look

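Among 102 groups of 4 libraries checked (members tested and other named genes, in control and in cKO), 2 had 1 library far from the other 3, and chance gives about 1 in 20. Mkrn3 stood at 6.02 CPM in control replicate 1 and at 7.91 to 8.15 CPM in the other control libraries. Mcts2 stood at 11.4 CPM in cKO replicate 1 and at 11.93 to 11.98 CPM in the other cKO libraries, a narrow range.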

How the results depend on the processing

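Without the replicate block, 0 members were higher and 0 lower, as were 0 and 0 of the other imprinted genes, the imprint maintenance factors and the neighbours, and 1 and 2 of all genes. With the block, the number of members called was 11 with RLE scaling, DESeq2, limma-voom and unrounded counts, and all 11 were the members called before. The number of members lower was 1 with upper-quartile scaling, with no filter and with a filter of 1 CPM in 4 libraries, where Gnas was lost. Leaving out each pair in turn gave 5 to 9 members higher and 0 to 3 lower, 1127 to 1702 of all genes higher and 910 to 1730 lower, 1 to 5 neighbours lower and 0 to 3 maintenance factors lower. Calls of Peg3, Zim1, Meg3, Rian and Peg13 held in all 11 alternatives with the block. DESeq2 and limma-voom each called 2 maintenance factors higher, with Atrx added (adjusted p 0.0366 and 0.0445). Neighbours within 100 kb gave 2 higher and 1 lower of 29 (10.3%, against 18.8% within 200 kb), and within 500 kb 21 higher and 11 lower of 167 (19.2%). Signs reversed only for genes without a call: for Igf2 with DESeq2 (-0.0074), and on leaving out a pair for Igf2 (-0.183 to 0.387), Mest (-0.0682 to 0.150), Kcnq1ot1 (-0.0327 to 0.0747), Ube3a (-0.0051 to 0.0621) and Peg12 (-0.122 to 0.0221; all log2). Without replicate 6, Plagl1 (-0.35) and Peg10 (-0.18) passed. The cause was not tested, apart from fewer libraries in the fits without a pair.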
